A study of Homo sapiens with 27 samples.

Results

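Interferon-stimulated genes are the antiviral and immune genes that cells switch on when interferon reaches them, and 53 of them, given as a list by symbol, were followed here across 3 cancer cell lines treated with an inhibitor of the receptor tyrosine kinase MET. A gene was read on the probe sets that the platform table assigns to it alone, through the brightest of these over all arrays. Such a probe set was found for 51 of the 53 genes, and 49 reached the array median on at least 3 of the 27 arrays and were tested, among 12390 genes tested in all. Of the others, OAS3 reached the median on 1 array and RSAD2 on 0, while STAT2 and USP18 had no single-gene probe set and were not analysed here. Choosing by brightness used the level of a gene over all arrays and not its change.

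The arrays came from 9 groups of 3, called biological replicates in the labels. MKN-45, from a gastric cancer, and EBC-1, from a non-small cell lung carcinoma, are lines that the study describes as addicted to MET. HCC827, another line of non-small cell lung carcinoma, was its negative control, in which MET is active but not needed. Each line was given DMSO, a solvent, or 1 uM of the MET inhibitor SGX-523, for 24 h or 48 h. No time is given for the DMSO cells, so both times in a line were set against the same 3 DMSO arrays and are not independent of each other. The labels name no interferon treatment in any group, and each tumour type stands on 1 or 2 established lines. Levels below are log2 array signals of a single probe set and cannot be compared from gene to gene. A change is the log2 difference between group means with its standard error (n = 3 against 3), tested with limma over all 12390 genes, and a gene is said to have risen or fallen where the Benjamini-Hochberg adjusted p was below 0.05. The arrays measure pooled RNA of a culture, in which more cells expressing a gene and more RNA per cell cannot be told apart.

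As background, type I and type III interferons act through receptors that activate the kinases JAK1 and TYK2 and a complex of STAT proteins with IRF9, which binds the interferon-stimulated response element in promoters. Interferon gamma acts through JAK1 and JAK2 and a STAT dimer that binds the gamma-activated sequence, and IRF1 is a classical early target of it. IRF1 can itself bind response elements and turn on a subset of the same genes. Many of the products detect viral RNA, halt translation, modify proteins with ISG15 or ADP-ribose, or act against viral entry and release, and carcinoma lines differ widely in how many of these genes they express at rest.

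Promoter sequence was read from the RefSeq table of human promoters (GRCh38.p14, 250 bases before to 50 after a start), which holds 40 of the 53 genes. The core letters of the interferon-stimulated response element, GAAA and again GAAA with any 2 bases between them, were found on either strand in 24 of these 40 promoters (60%), beside 996 of all 27305 promoters (3.65%). The core of the gamma-activated sequence, TTC and GAA with any 3 bases between them, which reads the same on both strands, was found in 11 of the 40 (27.5%), beside 2152 of the 27305 (7.88%). The 160 bases before the start are shown for 7 genes, in capitals where either core occurs. They were chosen because they hold a core there and because their levels moved together or apart in the results that follow. IRF1 (chr5:132490774-132490933, minus strand) and IRF9 (chr14:24161105-24161264, plus strand) each show a gamma-activated core and no response element core. IFIT1 (chr10:89392463-89392622, plus strand) and IFIT3 (chr10:89327837-89327996, plus strand) hold response element cores on the opposite strand. In ISG15 (chr1:1013337-1013496, plus strand) a pair of response element cores overlap. In BST2 (chr19:17405631-17405790, minus strand) a gamma-activated core runs into overlapping response element cores, and another follows. IFITM1 (chr11:313880-314039, plus strand) shows a core of each kind, and a further response element core across the start lies outside the bases shown. A match describes letters and does not show that a factor binds there.
IRF1: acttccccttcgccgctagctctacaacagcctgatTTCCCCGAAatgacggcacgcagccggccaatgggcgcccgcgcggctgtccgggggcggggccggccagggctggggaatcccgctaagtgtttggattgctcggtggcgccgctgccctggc
IRF9: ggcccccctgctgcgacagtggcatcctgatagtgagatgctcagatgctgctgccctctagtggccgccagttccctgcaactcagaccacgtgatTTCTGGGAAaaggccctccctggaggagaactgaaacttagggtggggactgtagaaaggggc
IFIT1: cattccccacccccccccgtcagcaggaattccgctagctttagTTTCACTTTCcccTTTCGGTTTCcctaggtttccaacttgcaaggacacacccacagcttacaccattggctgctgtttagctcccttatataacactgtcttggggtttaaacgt
IFIT3: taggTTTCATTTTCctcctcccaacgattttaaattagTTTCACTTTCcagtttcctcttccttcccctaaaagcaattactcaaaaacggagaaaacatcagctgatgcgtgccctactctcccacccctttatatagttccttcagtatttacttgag
ISG15: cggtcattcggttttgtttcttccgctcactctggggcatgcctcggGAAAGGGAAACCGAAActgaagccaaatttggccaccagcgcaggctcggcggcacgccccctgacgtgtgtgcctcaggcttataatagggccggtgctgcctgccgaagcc
BST2: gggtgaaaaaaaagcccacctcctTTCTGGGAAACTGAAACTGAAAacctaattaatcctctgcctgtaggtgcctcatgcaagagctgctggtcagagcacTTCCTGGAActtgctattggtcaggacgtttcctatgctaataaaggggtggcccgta
IFITM1: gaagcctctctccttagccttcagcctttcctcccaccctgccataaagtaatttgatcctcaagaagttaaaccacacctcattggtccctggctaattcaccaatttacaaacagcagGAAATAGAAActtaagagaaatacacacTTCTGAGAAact

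Some properties of the arrays bear on the results. The 9 HCC827 arrays had medians of 5.71 to 5.73 and the other 18 of 5.02 to 5.14, and the HCC827 values seem to have been normalized apart, so HCC827 levels are described and not tested against the other lines. HCC827 SGX-523 24 h replicate 3 stood apart: its lowest correlation within its group was 0.966, where groups other than HCC827 SGX-523 24 h had at least 0.996. Its residual SD was 0.371 log2 units, against at most 0.117 outside its group, and it widens the spread that all comparisons share. The external poly-A controls were higher on the treated arrays of EBC-1 and MKN-45, so that centring on them would lower all genes by 0.47 and 0.48 in EBC-1 at 24 h and 48 h, by 0.46 and 0.16 in MKN-45, and raise them in HCC827 (shifts of -0.13 and -0.23). Changes below are relative to the deposited scaling, and the counts under poly-A centring, with the share of all genes called under it, follow the main counts. Of the line markers, EPCAM and the keratins KRT8, KRT18 and KRT19 had DMSO levels of 11.77 to 13.62 in all lines, while CDH1 was at 3.20 in EBC-1. KRT8 and KRT18 fell with SGX-523 beside the changes described here, in EBC-1 with changes of -1.13 and -1.41 at 48 h and in MKN-45 of -1.97 and -2.05. Of 6 gastric or intestinal markers, TFF1, LGALS4 and VIL1 had DMSO levels of 10.41, 10.80 and 10.31 in MKN-45 against 3.48, 7.03 and 7.95 in EBC-1, whereas CDH17 (8.71 against 11.36) and CDX2 (6.19 against 6.88) read higher in EBC-1. CDX2 rose in both, by 3.06 in EBC-1 and 2.46 in MKN-45 at 48 h. The lung gene NAPSA was at 9.36 in HCC827 and 5.80 in EBC-1, where the squamous genes KRT5 (4.59) and SOX2 (3.61) lay below the array median. Of 8 leukocyte markers 3 were tested, and PTPRC and CD3E reached the median on 0 arrays, as did the 3 of 4 plasmacytoid dendritic cell markers that had a probe set. LYZ rose in EBC-1 by 2.22 ± 0.18 at 24 h and 1.87 ± 0.18 at 48 h from a DMSO level of 3.83, while CD14 fell by 0.62 and 1.39 and CD68 rose by 0.38 and 0.64. In DMSO LYZ read 11.46 in MKN-45 and 3.10 in HCC827, and CD68 read 4.83 in MKN-45 and 8.90 in HCC827. Of 6 fibroblast markers 2 were tested, while COL1A1, COL1A2, COL3A1 and DCN reached the median on 0 arrays. LUM rose in EBC-1 from a mean of 10.04 to 11.81 and 12.06, and PDGFRB read 5.08 in DMSO and 5.37 at 48 h, which did not pass. Their part in the results was not tested.

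In EBC-1 most of the genes rose with SGX-523 on the deposited scaling, though not at either time under poly-A centring. At 24 h 32 of 49 were higher than in DMSO (background 31.2% of all genes tested) and 2 were lower (background 28%), with a median change of 0.60 against 0.04 over all genes. At 48 h 31 were higher (background 32.7%) and 6 lower (background 28.9%), with a median of 0.58 against 0.07. At least 2-fold rises numbered 16 at 24 h (background 7.71%) and 14 at 48 h (background 8.26%), and no gene of the list fell that far (backgrounds 8.16% and 8.91%). With poly-A centring the counts were 21 higher and 12 lower (12.1% and 59.8% of all genes) at 24 h, and 16 higher and 16 lower (12.5% and 57.1% of all genes) at 48 h. Changes of at least 2-fold were then 7 higher and 1 lower (3.31% and 17.3% of all genes) at 24 h and 5 higher and 3 lower (3.89% and 18.7% of all genes) at 48 h.

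In MKN-45 the list was divided. At 24 h 22 genes rose (background 33.4%) and 9 fell (background 26.9%), and at 48 h 22 rose (background 36.4%) and 9 fell (background 26.2%). The median changes were 0.22 and 0.19, against 0.05 and 0.06 over all genes. The member shares of 44.9% higher and 18.4% lower, the same at both times, lie closer to the background than the 65.3% and 4.08% of EBC-1 at 24 h. At least 2-fold rises numbered 3 at 24 h (background 8.17%) and 7 at 48 h (background 10.2%), and falls of that size 2 (background 7.11%) and 3 (background 7.09%). With poly-A centring the counts were 7 higher and 20 lower (12.7% and 57.7% of all genes) at 24 h, and 17 higher and 12 lower (25.1% and 30.7% of all genes) at 48 h. Changes of at least 2-fold were then 1 higher and 6 lower (3.56% and 15.4% of all genes) at 24 h and 5 higher and 3 lower (7.89% and 9.03% of all genes) at 48 h.

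In HCC827 no gene of the list passed at 24 h (backgrounds 0.0323% higher and 0% lower), where 4 were higher and 12 lower at an unadjusted p under 0.05 in limma and the separate fit of this line also called 0. At 48 h 7 rose (background 11.6%) and 1 fell (background 10.7%), with 3 rises of at least 2-fold (background 0.581%) and 0 such falls (background 0.0565%). The median change at 48 h was -0.06, against 0.01 over all genes. With poly-A centring the counts were 12 higher and 0 lower (27% and 0.856% of all genes) at 48 h, with 2-fold changes of 3 higher and 0 lower (1.37% and 0.0323% of all genes), and 0 higher and 0 lower (0% and 0% of all genes) at 24 h. Without HCC827 SGX-523 24 h replicate 3 they were 11 higher and 7 lower (18.5% and 19% of all genes) at 48 h and 0 higher and 0 lower (0.145% and 0.0161% of all genes) at 24 h. Without SGX-523 24 h replicate 1 the 24 h counts were 5 higher and 10 lower (6.12% and 13.2% of all genes), without replicate 2 of that group 3 higher and 10 lower (6.65% and 14.9% of all genes), and without DMSO replicate 1 they were 1 higher and 0 lower (0.0323% and 0% of all genes).

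**Figure D1:**
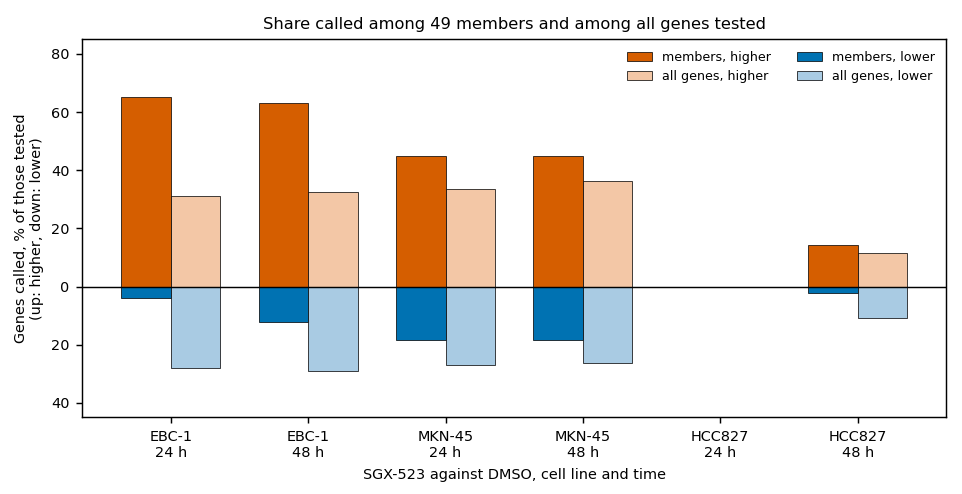
Share of the 49 interferon-stimulated genes (dark bars) and of all 12390 genes tested (pale bars) called higher (above the zero line) or lower (below it) in SGX-523 than in DMSO, in percent, by cell line and time. The dark bars exceed the pale ones most in EBC-1 (65.3% against 31.2% higher at 24 h); with poly-A centring instead of the deposited scaling, the EBC-1 counts at 48 h were 16 higher and 16 lower (12.5% and 57.1% of all genes).

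**Figure D2:**
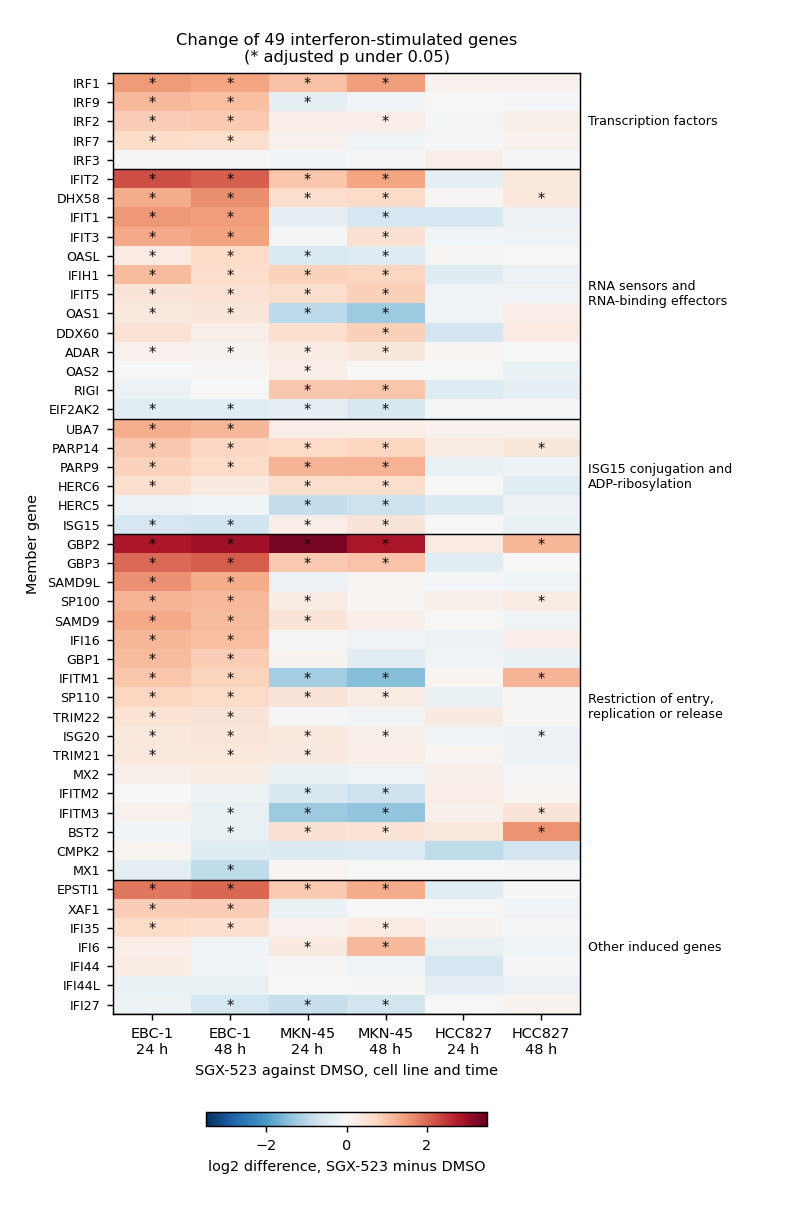
Log2 difference between SGX-523 and DMSO for the 49 genes (rows, grouped by role and ordered by the EBC-1 value at 48 h) in each line and time (columns); red is higher and blue lower in SGX-523, and a star marks an adjusted p below 0.05. GBP2 is high in both MET-addicted lines, IFITM1 is red in EBC-1 (0.78 at 48 h) and blue in MKN-45 (-1.50), and the HCC827 columns hold 8 stars, all at 48 h; weaker starred changes such as those of ADAR, OAS1, TRIM21 and ISG20 in EBC-1 turn sign under poly-A centring.

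Among the transcription factors, IRF1, an early interferon target that can turn on a subset of these genes, rose in both MET-addicted lines. Whether it acted on them here was not tested. In EBC-1 the IRF1 levels were 6.92, 6.96 and 6.97 in DMSO, 8.47, 8.47 and 8.41 at 24 h and 8.36, 8.32 and 8.31 at 48 h. All treated arrays lay above all DMSO arrays. The rise was 1.50 ± 0.071 (adjusted p = 2.19e-15) at 24 h and 1.38 ± 0.071 (adjusted p = 9.02e-15) at 48 h. In MKN-45 IRF1 started lower, at 5.26, 5.38 and 5.24, and reached 6.25, 6.26 and 6.44 at 24 h and 6.68, 6.78 and 6.77 at 48 h. These groups did not overlap either, and the rise was 1.03 ± 0.071 (adjusted p = 3.78e-12) and then 1.45 ± 0.071 (adjusted p = 3.87e-15). In HCC827 the differences were 0.16 ± 0.071 at 24 h and 0.14 ± 0.071 at 48 h, and neither passed.

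IRF9, the DNA-binding part of the complex that type I interferon activates, separated the lines. In EBC-1 it went from 8.38, 8.31 and 8.42 to 9.57, 9.48 and 9.49 at 24 h and 9.44, 9.47 and 9.37 at 48 h, a rise of 1.15 ± 0.067 (adjusted p = 1.64e-13) and 1.06 ± 0.067 (adjusted p = 6.32e-13). In MKN-45 it went from 6.88, 6.78 and 6.81 to 6.50, 6.58 and 6.37 at 24 h, a change of -0.34 ± 0.067 (adjusted p = 9.47e-05), and to 6.65, 6.75 and 6.68 at 48 h, where -0.13 ± 0.067 did not pass. The DMSO and 24 h arrays did not overlap in either line. IRF2, which competes with IRF1 for its sites, rose in EBC-1 by 0.87 and 0.92 and in MKN-45 at 48 h by 0.24. IRF7, the amplifier of interferon gene expression, passed in EBC-1 and in neither other line, rising by 0.66 and 0.63, and its response differed from that of MKN-45 by 0.79 ± 0.20 (adjusted p = 0.002) at 48 h. Against HCC827 the difference in response at 48 h, 0.48 ± 0.20, did not pass (adjusted p = 0.0534). IRF3, which is held latent and activated by phosphorylation, had differences from -0.10 to 0.24 over the 6 comparisons, and none passed. Of the 5 tested factors 4 thus rose in EBC-1 at both times, 1 rose and 1 fell in MKN-45 at 24 h, and 2 rose there at 48 h (shares of all genes higher and lower 31.2% and 28% and 32.7% and 28.9% in EBC-1, 33.4% and 26.9% and 36.4% and 26.2% in MKN-45, as for the role groups that follow). After poly-A centring this group counted, higher and lower, 3 and 1 in EBC-1 at 24 h, 3 and 1 at 48 h, and in MKN-45 1 and 2 and then 1 and 1. Shares of all genes higher and lower were then 12.1% and 59.8% in EBC-1 at 24 h and 12.5% and 57.1% at 48 h. In MKN-45 they were 12.7% and 57.7% at 24 h and 25.1% and 30.7% at 48 h. The same shares apply to the poly-A counts of the role groups that follow.

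The RNA sensors and RNA-binding effectors numbered 13 tested genes, of which 9 higher and 1 lower passed in EBC-1 at 24 h and 9 higher and 1 lower at 48 h, and in MKN-45 7 higher and 3 lower and then 8 higher and 4 lower. After poly-A centring this group counted, higher and lower, 5 and 4 in EBC-1 at 24 h, 4 and 4 at 48 h, and in MKN-45 2 and 5 and then 8 and 4. IFIT2, an RNA-binding protein that limits viral translation, showed the largest EBC-1 rise of this group. It went from 6.83, 6.91 and 6.85 in DMSO to 9.05, 9.15 and 9.13 at 24 h and 8.84, 9.01 and 9.03 at 48 h, with no overlap, a rise of 2.25 ± 0.21 (adjusted p = 9.44e-10) and 2.09 ± 0.21 (adjusted p = 3.02e-09). In MKN-45 IFIT2 was low, at 4.38, 4.21 and 3.61 in DMSO, 5.22, 5.22 and 4.70 at 24 h and 5.12, 5.67 and 5.57 at 48 h. All treated arrays exceeded all DMSO arrays, though the DMSO levels lay below the array median, where sizes of change are less certain, and the rise was 0.98 ± 0.21 (adjusted p = 0.000238) and 1.38 ± 0.21 (adjusted p = 2.63e-06).

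Its relatives did not all follow it in MKN-45. IFIT1, which binds viral RNA that lacks the host's cap methylation, rose in EBC-1 from 7.13, 7.05 and 6.91 to 8.47, 8.59 and 8.60 at 24 h and 8.49, 8.41 and 8.55 at 48 h, by 1.53 ± 0.16 (adjusted p = 1.16e-08) and 1.45 ± 0.16 (adjusted p = 2.46e-08). No treated array overlapped the DMSO arrays. In MKN-45 IFIT1 was at 4.99, 5.02 and 4.62 in DMSO, 4.70, 4.63 and 4.41 at 24 h and 4.16, 4.10 and 4.62 at 48 h. The 48 h group met the DMSO group at its edge, all values lay at or below the array median, and the change of -0.58 ± 0.16 (adjusted p = 0.00321) at 48 h passed while -0.30 ± 0.16 at 24 h did not. IFIT3, which stabilises IFIT1 on RNA and whose promoter, shown above, also holds response element cores, rose in EBC-1 by 1.33 and 1.41 and in MKN-45 at 48 h by 0.52 ± 0.091. IFIT5 rose in EBC-1 by 0.46 and 0.50 and in MKN-45 by 0.62 and 0.82, although another probe set of it read -0.20 and -0.03 in EBC-1, and poly-A centring gave -0.011 there at 24 h.

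The cytosolic helicases that sense viral RNA were raised in different combinations. DHX58 (LGP2), which tunes the other sensors, rose in EBC-1 from 6.24, 6.06 and 6.26 to 7.85, 7.69 and 7.87 at 48 h, by 1.62 ± 0.095 (adjusted p = 1.24e-13), in MKN-45 by 0.67 ± 0.095 and in HCC827 by 0.36 ± 0.095 at the same time. IFIH1 (MDA5), the sensor of long duplex RNA, rose in EBC-1 by 1.10 and 0.63 and in MKN-45 by 0.80 and 0.75. RIGI (listed as DDX58), the sensor of RNA with a triphosphate end, rose in MKN-45 from 5.02, 4.94 and 5.15 to 5.93, 6.12 and 5.89 at 24 h and 5.94, 6.08 and 5.99 at 48 h, by 0.94 ± 0.16 (adjusted p = 1.74e-05) and 0.96 ± 0.16 (adjusted p = 1.18e-05). In EBC-1 it read 5.45, 5.30 and 5.37 in DMSO and 5.63, 5.27 and 5.18 at 48 h, overlapping groups whose difference of -0.01 ± 0.16 did not pass, and the responses of the lines differed by -0.98 ± 0.23 (adjusted p = 0.000952). DDX60, a helicase that assists RIGI, passed only in MKN-45 at 48 h among the comparisons with DMSO, at 0.84 ± 0.27.

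The enzymes that act on RNA or translation moved apart. OAS1, a synthetase of the oligoadenylate that activates RNase L, rose in EBC-1 from 8.01, 8.10 and 8.04 to 8.33, 8.43 and 8.42 at 24 h and 8.44, 8.50 and 8.47 at 48 h, by 0.35 ± 0.095 (adjusted p = 0.00279) and 0.42 ± 0.095 (adjusted p = 0.000393), although poly-A centring turned these to -0.12 and -0.053. In MKN-45 OAS1 fell from 8.23, 8.47 and 8.32 to 7.53, 7.53 and 7.22 at 24 h and 7.09, 7.09 and 7.01 at 48 h. All treated arrays there lay below all DMSO arrays, and the changes were -0.91 ± 0.095 (adjusted p = 7.27e-09) and -1.28 ± 0.095 (adjusted p = 1.53e-11). All 4 kept probe sets of OAS1 showed a higher mean in EBC-1 and a lower mean in MKN-45 at both times. OASL, a relative that supports RIGI signalling, went from 6.08, 6.14 and 6.25 to 6.72, 6.76 and 6.98 in EBC-1 at 48 h, a rise of 0.67 ± 0.11 (adjusted p = 8.17e-06), and from 6.34, 6.39 and 6.44 to 6.01, 5.87 and 5.97 in MKN-45, a change of -0.44 ± 0.11 (adjusted p = 0.00107), with no overlap in either line. EIF2AK2 (PKR), the kinase that halts translation on sensing viral RNA, fell in both lines. Its EBC-1 levels were 8.23, 8.28 and 8.40 in DMSO and 7.87, 7.96 and 7.98 at 48 h, and its MKN-45 levels 7.25, 7.28 and 7.34 and 6.79, 6.76 and 6.60; the groups did not overlap and the changes at 48 h were -0.37 ± 0.088 (adjusted p = 0.000777) and -0.57 ± 0.088 (adjusted p = 3.79e-06). ADAR, the RNA-editing deaminase, rose by 0.14 to 0.40 in both lines, although poly-A centring turned it to -0.32 and -0.34 in EBC-1 and -0.20 in MKN-45 at 24 h, and the EBC-1 call at 48 h was lost without any 1 of 21 arrays. OAS2 passed only in MKN-45 at 24 h, at 0.24, which became -0.22 under that centring.

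In the ISG15 and ADP-ribosylation group, 4 higher and 1 lower of the 6 tested genes passed in EBC-1 at 24 h and 3 higher and 1 lower at 48 h, and in MKN-45 4 higher and 1 lower at both times. After poly-A centring this group counted, higher and lower, 3 and 2 in EBC-1 at 24 h, 1 and 2 at 48 h, and in MKN-45 1 and 1 and then 3 and 1. ISG15, a ubiquitin-like protein attached to other proteins and a strong responder to interferon, fell in EBC-1 while most of the list rose. Its levels were 9.88, 9.90 and 9.83 in DMSO, 9.19, 9.34 and 9.32 at 24 h and 9.21, 9.16 and 9.17 at 48 h. Every treated array lay below every DMSO array, and the changes were -0.59 ± 0.097 (adjusted p = 1.04e-05) and -0.69 ± 0.097 (adjusted p = 9.01e-07). In MKN-45 ISG15 went the other way, from 8.64, 8.81 and 8.55 to 8.80, 8.99 and 8.93 at 24 h, where the groups met at 1 array, and 9.08, 9.22 and 9.10 at 48 h, where they did not overlap. The rise was 0.24 ± 0.097 (adjusted p = 0.0369) at 24 h, which poly-A centring turned to -0.22, and 0.46 ± 0.097 (adjusted p = 0.000206) at 48 h. Its probe set is of a type whose probes can match more than 1 transcript, and no other was kept.

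UBA7, the enzyme that activates ISG15 for attachment, rose in EBC-1 by 1.27 ± 0.15 (adjusted p = 9.89e-08) and 1.17 ± 0.15 (adjusted p = 3.47e-07), opposite to ISG15 itself, and did not pass in MKN-45 (0.23 ± 0.15 at 48 h). HERC5, the main ligase of ISG15, fell in MKN-45 by 0.83 and 0.76 and did not pass in EBC-1, while its relative HERC6 rose in MKN-45 by 0.62 and 0.63 and in EBC-1 at 24 h by 0.60. PARP9, a macrodomain protein that partners an ADP-ribosylating ubiquitin ligase, rose in both lines and more in MKN-45. There it went from 7.16, 7.11 and 7.23 to 8.41, 8.34 and 8.28 at 24 h and 8.30, 8.42 and 8.43 at 48 h, without overlap, by 1.18 ± 0.088 (adjusted p = 1.81e-11) and 1.22 ± 0.088 (adjusted p = 8.47e-12). In EBC-1 it rose by 0.80 and 0.66, and the lines' responses differed by -0.38 ± 0.12 (adjusted p = 0.0158) at 24 h and -0.56 ± 0.12 (adjusted p = 0.00056) at 48 h. Another probe set of PARP9 read -0.10 in EBC-1 and 0.22 in MKN-45 at 48 h. PARP14, a macrodomain ADP-ribosyltransferase, rose in EBC-1 by 0.95 and 0.72, in MKN-45 by 0.68 and 0.76, and in HCC827 at 48 h by 0.40 ± 0.074.

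The restriction factors were the largest group, with 18 tested genes: 12 higher and 0 lower passed in EBC-1 at 24 h, 12 higher and 3 lower at 48 h, and in MKN-45 8 higher and 3 lower at 24 h and 5 higher and 3 lower at 48 h. The MKN-45 share of higher genes at 48 h, 5 of 18, lay below the 36.4% over all genes. After poly-A centring this group counted, higher and lower, 8 and 3 in EBC-1 at 24 h, 6 and 5 at 48 h, and in MKN-45 2 and 8 and then 3 and 5. GBP2, a guanylate-binding GTPase that attacks the vacuoles of intracellular pathogens, had the largest rise of the list in each of the 4 comparisons of these lines with DMSO. Its EBC-1 levels were 7.71, 7.59 and 7.68 in DMSO, 10.32, 10.46 and 10.65 at 24 h and 10.55, 10.49 and 10.72 at 48 h, a rise of 2.82 ± 0.10 (adjusted p = 1.15e-17) and 2.93 ± 0.10 (adjusted p = 4.17e-18). In MKN-45 they were 5.26, 5.66 and 5.65 in DMSO, 8.87, 8.84 and 8.84 at 24 h and 8.33, 8.47 and 8.37 at 48 h, a rise of 3.33 ± 0.10 (adjusted p = 5.58e-19) and 2.87 ± 0.10 (adjusted p = 7.18e-18). In neither line did treated and DMSO arrays overlap, and the 24 h arrays of MKN-45 lay above the 48 h arrays. In HCC827 GBP2 read 7.06, 7.21 and 7.0 in DMSO, 7.38, 7.19 and 7.53 at 24 h and 8.30, 8.19 and 8.24 at 48 h, and rose at 48 h only, by 1.16 ± 0.10 (adjusted p = 1.38e-08). GBP3, its close relative, rose in EBC-1 from 7.45, 7.46 and 7.53 to 9.44, 9.42 and 9.54 at 24 h and 9.58, 9.59 and 9.60 at 48 h, by 1.99 ± 0.19 (adjusted p = 1.72e-09) and 2.11 ± 0.19 (adjusted p = 5.22e-10), and in MKN-45 by 0.91 and 1.00. GBP1 rose in EBC-1 by 1.12 and 0.85 and did not pass in MKN-45, where it read -0.37 ± 0.20 at 48 h. The guanylate-binding genes are similar in sequence and GBP2 was read by a probe set that can match relatives, so how much each contributes to a signal is uncertain.

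The IFITM proteins, which block the fusion of viruses with cell membranes, gave contrasts between the lines. IFITM1 rose in EBC-1 from 10.51, 10.54 and 10.46 to 11.48, 11.47 and 11.49 at 24 h and 11.31, 11.29 and 11.23 at 48 h, by 0.98 ± 0.091 (adjusted p = 1.06e-09) and 0.78 ± 0.091 (adjusted p = 5.65e-08). In MKN-45, from a like DMSO level of 10.43, 10.51 and 10.30, it fell to 9.15, 9.28 and 9.16 at 24 h and 8.80, 8.99 and 8.97 at 48 h, a change of -1.22 ± 0.091 (adjusted p = 2.11e-11) and -1.50 ± 0.091 (adjusted p = 3.46e-13). In HCC827 it read 8.82, 8.53 and 8.85 in DMSO, 8.69, 8.66 and 9.03 at 24 h and 9.98, 10.04 and 9.75 at 48 h, and rose at 48 h by 1.19 ± 0.091 (adjusted p = 1.88e-09). DMSO and 48 h arrays were apart in all 3 lines. IFITM3 fell in MKN-45 from 9.11, 9.26 and 9.13 to 7.84, 7.98 and 7.88 at 24 h and 7.74, 7.98 and 7.65 at 48 h, a change of -1.27 ± 0.099 (adjusted p = 4.6e-11) and -1.37 ± 0.099 (adjusted p = 8.59e-12). In EBC-1 IFITM3 changed by -0.26 ± 0.099 (adjusted p = 0.0267) at 48 h, and in HCC827 by 0.44 ± 0.099 (adjusted p = 0.00188). IFITM2 fell in MKN-45 by 0.57 and 0.72 and did not pass elsewhere. The 3 genes are near-identical in places and IFITM1 and IFITM3 were read by probe sets that can match relatives, so a shared signal between them cannot be told apart, but another IFITM1 probe set read 0.69 in EBC-1 and -1.60 in MKN-45 at 48 h.

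BST2 (tetherin), which holds budding viruses on the cell surface, had its largest rise in HCC827. In HCC827 it read 7.86, 7.69 and 7.42 in DMSO, 7.96, 7.96 and 8.19 at 24 h and 9.16, 9.29 and 9.24 at 48 h. The 48 h arrays stood clear of all others, and the rise was 1.57 ± 0.086 (adjusted p = 3.13e-12), while 0.38 ± 0.086 at 24 h did not pass. In MKN-45 BST2 went from 7.46, 7.60 and 7.58 to 8.08, 8.07 and 8.11 at 24 h and 8.07, 7.95 and 8.03 at 48 h, by 0.54 ± 0.086 (adjusted p = 5.8e-06) and 0.48 ± 0.086 (adjusted p = 3.41e-05). In EBC-1, where its DMSO levels were 9.35, 9.51 and 9.43, it reached 9.13, 9.12 and 9.24 at 48 h, a change of -0.27 ± 0.086 (adjusted p = 0.00835). All 3 kept probe sets of BST2 gave the same directions at 48 h, from 1.47 to 1.57 in HCC827. MX1, a dynamin-like GTPase that blocks viral nucleocapsids, went from 6.30, 6.19 and 6.33 in EBC-1 DMSO to 5.90, 5.93 and 6.08 at 24 h and 5.54, 5.37 and 5.21 at 48 h, with no overlap, and fell at 48 h by 0.90 ± 0.16 (adjusted p = 3.86e-05). MX1 did not pass in the other lines, and its relative MX2 passed in none of the comparisons with DMSO.

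Several restriction factors rose in EBC-1 at both times and did not pass in MKN-45 at 48 h. SAMD9L and SAMD9, antiviral proteins that limit translation in infected cells, rose in EBC-1 by 1.59 and 1.34 at 24 h and by 1.31 and 1.12 at 48 h. IFI16, a sensor of DNA, rose by 1.17 and 1.05. TRIM22 rose by 0.48 and 0.46, which poly-A centring turned to -0.018 at 48 h. In MKN-45 at 48 h SAMD9L, SAMD9, IFI16 and TRIM22 read 0.10, 0.23, -0.11 and -0.09, none of which passed, and the responses of the lines differed for SAMD9L (1.21 ± 0.19, adjusted p = 7.92e-06), SAMD9 (0.89 ± 0.15, adjusted p = 2.18e-05) and IFI16 (1.17 ± 0.16, adjusted p = 1.48e-06) but did not pass for TRIM22 (0.55 ± 0.24, adjusted p = 0.0583). SAMD9 had passed in MKN-45 at 24 h at 0.46, which became -0.0026 with poly-A centring. In MKN-45 DMSO SAMD9L, SAMD9 and IFI16 lay below the array median. A change there can be missed, so the sizes of these differences between the lines are uncertain.

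The nuclear body proteins SP100 and SP110 rose in EBC-1 by 1.14 and 0.66 at 48 h. In MKN-45 they rose at 24 h by 0.26 and 0.46, which became -0.20 and -0.0011 with poly-A centring, and SP110 also at 48 h by 0.27. SP100 rose in HCC827 at 48 h by 0.26 ± 0.091 on its brightest probe set, while the mean of its 9 kept probe sets gave -0.031. ISG20, an RNA exonuclease, rose in EBC-1 (0.36 and 0.42) and MKN-45 (0.35 and 0.19), though poly-A centring turned all but the last of these below 0. In HCC827 ISG20 went from 8.06, 7.83 and 8.03 to 7.78, 7.81 and 7.74 at 48 h, apart from each other, and its change of -0.19 ± 0.07 (adjusted p = 0.0487) was the single fall of the list in that line, 0.039 under poly-A centring and not called without any 1 of 21 arrays. TRIM21, the cytosolic antibody receptor, rose in EBC-1 (0.38 and 0.37) and in MKN-45 at 24 h (0.32), and poly-A centring turned all 3 below 0. CMPK2, a mitochondrial nucleotide kinase, passed in no comparison with DMSO.

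Of the 7 other induced genes 3 higher and 0 lower passed in EBC-1 at 24 h and 3 higher and 1 lower at 48 h, and in MKN-45 2 higher and 1 lower at 24 h and 3 higher and 1 lower at 48 h. The MKN-45 counts of 2 and 3 of 7 lie near the 33.4% and 36.4% over all genes. After poly-A centring this group counted, higher and lower, 2 and 2 in EBC-1 at 24 h, 2 and 4 at 48 h, and in MKN-45 1 and 4 and then 2 and 1. EPSTI1, an interferon-induced gene of epithelial cells, rose in EBC-1 from 7.93, 8.05 and 7.91 to 9.83, 9.78 and 9.78 at 24 h and 9.95, 10.04 and 9.96 at 48 h, by 1.83 ± 0.15 (adjusted p = 9.07e-11) and 2.02 ± 0.15 (adjusted p = 1.32e-11), and in MKN-45 by 0.92 and 1.29. Treated and DMSO arrays of EBC-1 did not overlap. IFI6, a membrane protein of the endoplasmic reticulum and mitochondria, rose in MKN-45 with time, from 5.63, 6.04 and 5.78 to 6.09, 6.08 and 6.21 at 24 h and 7.01, 7.08 and 6.81 at 48 h, by 0.31 ± 0.11 (poly-A centring gave -0.16) and then 1.15 ± 0.11 (adjusted p = 1.12e-09). In EBC-1 its differences of 0.25 and -0.09 did not pass. IFI27, a mitochondrial protein that is among the commonest markers of an interferon response, fell in EBC-1 at 48 h from 11.77, 11.80 and 11.73 to 11.14, 11.12 and 11.16, a change of -0.63 ± 0.13 (adjusted p = 0.000128). In MKN-45 it fell from 5.41, 5.75 and 5.47 to 5.19, 4.53 and 4.50 at 24 h and 4.87, 4.85 and 5.0 at 48 h, levels near the array median, a change of -0.81 ± 0.13 (adjusted p = 5.42e-06) and -0.64 ± 0.13 (adjusted p = 0.000104). XAF1, a promoter of cell death, rose in EBC-1 by 0.85 and 0.86 on the tested probe set, and its 4 other kept probe sets read 0.45 to 1.51 at 48 h. IFI35 rose in EBC-1 (0.65 and 0.58) and in MKN-45 at 48 h (0.30). IFI44 and IFI44L, both strong type I interferon targets, passed in no comparison with DMSO.

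**Figure D3:**
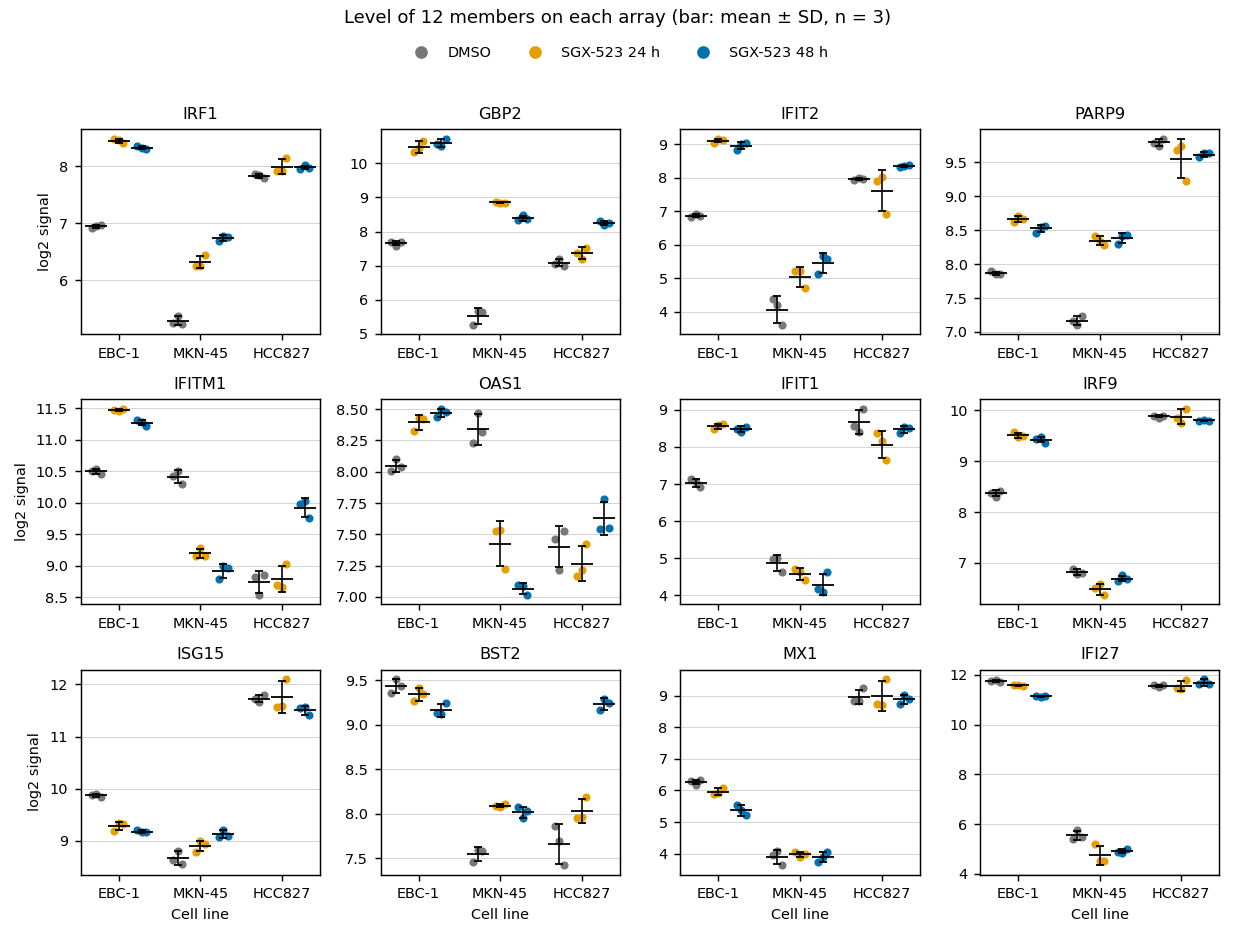
Log2 signal (vertical axis) of 12 genes on each of the 27 arrays, by cell line and treatment; points are arrays and bars the group mean ± SD (n = 3). GBP2 and IRF1 are higher in both MET-addicted lines after treatment, IFITM1 and OAS1 fall in MKN-45, ISG15 falls in EBC-1, and BST2 in HCC827 reaches 9.16, 9.29 and 9.24 at 48 h; OAS1 in EBC-1 rises on the deposited scaling and not under poly-A centring.

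HCC827 held high DMSO levels of several of these genes before any treatment, on its own scaling. ISG15 read 11.71, 11.67 and 11.80, IFI27 11.58, 11.50 and 11.60, IFI44L 8.51, 8.47 and 8.86 and MX1 8.82, 8.85 and 9.23. The means of the same probe sets in MKN-45 were 8.67, 5.55, 3.55 and 3.89, lower by more than the gap of the array medians for each of the 4 genes, though untested because of the scaling. High levels in DMSO were not particular to HCC827. In EBC-1 the DMSO levels of ISG15, IFI27 and MX1, given above, also lay over these MKN-45 means, and those of IFI27 lay over the HCC827 arrays. The 7 genes that rose at 48 h were BST2, IFITM1, GBP2, IFITM3 (0.44), PARP14, DHX58 and SP100. Against MKN-45 the 48 h response of HCC827 differed in opposite called directions for IFITM1 (-2.68 ± 0.13, adjusted p = 9.79e-15 for MKN-45 minus HCC827), IFITM3 (-1.82 ± 0.14, adjusted p = 7.53e-11) and ISG20. Against EBC-1 it did so for BST2 (-1.84 ± 0.12, adjusted p = 4.15e-12 for EBC-1 minus HCC827), IFITM3 and ISG20. Over the list, EBC-1 minus HCC827 was positive for 27 genes (background 24.5%) and negative for 7 (background 24.2%), and MKN-45 minus HCC827 positive for 19 (background 29.6%) and negative for 8 (background 21.5%). Poly-A centring, which moves HCC827 the other way, gave 11 higher and 17 lower (4.81% and 67.6% of all genes) for the former and 10 higher and 14 lower (12% and 39% of all genes) for the latter.

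The differences between the MET-addicted lines were tested directly; at a given time the responses of these lines share no arrays, while the 24 h and 48 h differences share the DMSO arrays. The signed difference, EBC-1 minus MKN-45, was positive for 26 genes at 24 h (background 18.3%) and 23 at 48 h (background 19.6%), and negative for 5 (background 23.8%) and 7 (background 29.4%). The sign is not the size of a response: HERC5, positive at 48 h (0.65), fell in MKN-45 and did not pass in EBC-1, and ISG15, among the negative genes, fell in EBC-1. With poly-A centring the counts were 22 higher and 4 lower (12.9% and 17.1% of all genes) at 24 h, and 16 higher and 11 lower (8.48% and 43.1% of all genes) at 48 h. At 48 h 16 genes were called higher in both lines (32.7% of the list and 21.4% of all genes), among them GBP2, IFIT2, EPSTI1, GBP3 and IRF1, and 3 were called lower in both (6.12% of the list and 17.5% of all genes), which were EIF2AK2, IFI27 and IFITM3. In 6 genes the called directions were opposite (12.2% of the list and 6.88% of all genes). IFITM1, IFIT1, OAS1 and OASL were higher in EBC-1 and lower in MKN-45 (8.16% of the list and 2.93% of all genes). ISG15 and BST2 went the reverse way, at 4.08% of the list, near the 3.95% of all genes. OAS1 in EBC-1 depended on the scaling. The differences were 2.27 ± 0.13 for IFITM1, 2.04 ± 0.23 for IFIT1, 1.70 ± 0.13 for OAS1, 1.11 ± 0.15 for OASL, -1.16 ± 0.14 for ISG15 and -0.75 ± 0.12 for BST2, with adjusted p from 3.73e-13 to 1.54e-05. GBP2 (0.06 ± 0.14, adjusted p = 0.746) and IRF1 (-0.07 ± 0.10, adjusted p = 0.587) did not pass for a difference between these lines at 48 h. Over the 49 genes Pearson's r between the responses of the lines was 0.51 at 48 h, a description across genes that share arrays.

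**Figure D4:**
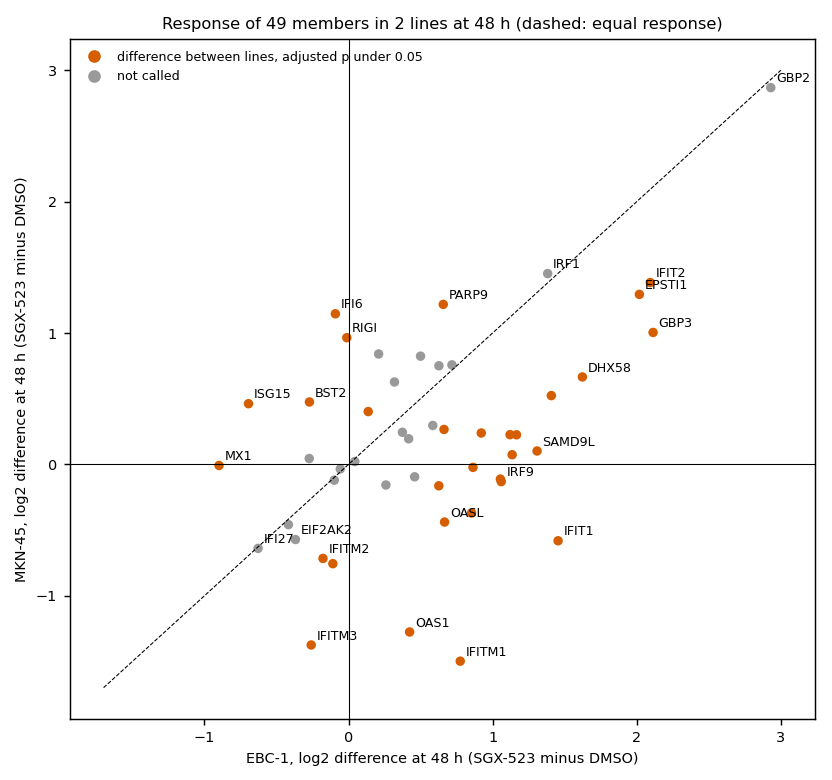
Log2 difference between SGX-523 and DMSO at 48 h in EBC-1 (horizontal axis) and MKN-45 (vertical axis) for the 49 genes, 1 point each; orange points passed the test of the difference between the lines and the dashed line marks equal responses. GBP2 (2.93 and 2.87) and IRF1 lie at the dashed line, IFITM1, OAS1 and IFIT1 in the lower right, and ISG15 and BST2 in the upper left; OAS1 in EBC-1 lies at -0.053 under poly-A centring.

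The 48 h arrays were also set against the 24 h arrays of the same line. In EBC-1 2 genes were higher at 48 h than at 24 h (background 4.99%) and 6 lower (background 6.08%). OASL (0.38 ± 0.11) and DHX58 (0.33 ± 0.095) went up, and MX1 (-0.59 ± 0.16), IFIH1 (-0.47 ± 0.15), IFI27 (-0.44 ± 0.13), IFITM3 (-0.41 ± 0.099), IFI6 (-0.34 ± 0.11) and PARP14 (-0.23 ± 0.074) went down. Poly-A centring left 0 higher and 1 lower (1.61% and 2.78% of all genes), and leaving out single arrays gave from 1 to 11 fallen genes. Without HCC827 SGX-523 24 h replicate 3 the counts were 3 higher and 11 lower (10.6% and 13.4% of all genes). The calls of IFIH1, PARP14 and IFI6 were each lost on leaving out any 1 of 24, 21 and 15 arrays. In MKN-45 4 rose (background 14.9%) and 4 fell (background 9.35%): IFI6 (0.84 ± 0.11), IFIT3 (0.60 ± 0.091), IRF1 (0.43 ± 0.071) and IRF9 (0.21 ± 0.067) went up, and GBP2 (-0.46 ± 0.10), OAS1 (-0.36 ± 0.095), IFITM1 (-0.28 ± 0.091) and EIF2AK2 (-0.26 ± 0.088) went down. Without HCC827 SGX-523 24 h replicate 3 the counts were 10 higher and 8 lower (24.8% and 14.9% of all genes). Poly-A centring gave 19 higher and 0 lower (49.2% and 1.4% of all genes) and put IFITM1 at 0.022 and EIF2AK2 at 0.048. In HCC827 10 were higher (background 15.8%) and 0 lower (background 10.7%; 3 at an unadjusted p under 0.05), led by BST2 (1.19 ± 0.086), IFITM1 (1.13 ± 0.091), DDX60 (0.97 ± 0.27), GBP2 (0.88 ± 0.10) and IFIT2 (0.73 ± 0.21). Poly-A centring gave 11 higher and 0 lower (16.6% and 1.63% of all genes). For DDX60 the 24 h values were 9.15, 9.17 and 7.34, with the low value in the replicate that stood apart, which was also low for IFIT2 (7.89, 8.03 and 6.93).

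Before treatment EBC-1 held more of these transcripts than MKN-45. In DMSO 32 of the 49 were higher in EBC-1 (background 33.6%) and 5 lower (background 34%), with a median difference of 0.79 against 0.01 over all genes. With poly-A centring the counts were 34 higher and 4 lower (38.1% and 24.6% of all genes), and without HCC827 SGX-523 24 h replicate 3 they were 33 higher and 8 lower (37.2% and 37.7% of all genes). IFI16 read 10.68, 10.61 and 10.69 in EBC-1 and 2.85, 2.95 and 2.78 in MKN-45, a difference of 7.80 ± 0.11 (adjusted p = 1.33e-25). SAMD9 (9.89 and 3.61), IFI27 (11.77 and 5.55), IFI44 (8.47 and 3.47) and SAMD9L (7.73 and 3.55) also differed, by 6.28, 6.22, 5.00 and 4.18. In MKN-45 IFI16, SAMD9, IFI44 and SAMD9L lay below the array median, so these differences are of uncertain size. The 5 genes that were lower in EBC-1 were HERC5 (-1.19), IRF2 (-0.64), IFIH1 (-0.61), ISG20 (-0.48) and OAS1 (-0.29). IFITM1 did not pass (0.09 ± 0.091, adjusted p = 0.428), although the line responses to SGX-523 were opposite for it.

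Other genes of the pathway were followed as lists by role, to be read against 32.7% and 28.9% of all genes called higher and lower in EBC-1 at 48 h and 36.4% and 26.2% in MKN-45. With poly-A centring these shares were 12.5% and 57.1% in EBC-1 and 25.1% and 30.7% in MKN-45. Of 10 interferon genes, 7 had a single-gene probe set and none was tested, since each of these 7, IFNB1, IFNG and IFNL1 among them, reached the array median on 0 of the 27 arrays. Of 9 tested receptor and kinase genes, 6 higher and 2 lower passed in EBC-1 at 48 h and 6 higher and 1 lower in MKN-45 (with poly-A centring 3 and 3 in EBC-1 and 4 and 1 in MKN-45). JAK1, the kinase that all the receptors use, rose in EBC-1 by 1.14 ± 0.045 (adjusted p = 8.41e-17) and 1.22 ± 0.045 (adjusted p = 1.6e-17) and in MKN-45 by 0.53 and 0.49. JAK2 rose in EBC-1 by 0.98 at 48 h, from a DMSO mean of 4.91, and in MKN-45 from a mean of 4.14 to 4.80. The EBC-1 DMSO mean and both MKN-45 means lay below the array median, so the sizes of these rises are uncertain. IFNGR1, the ligand-binding chain of the interferon gamma receptor, rose at 48 h by 0.97 in EBC-1 and 0.31 in MKN-45. IFNGR2, its signalling chain, fell in both lines, by 0.56 in EBC-1 and 1.00 in MKN-45 at 48 h. IFNLR1, the chain specific to type III interferon, fell in EBC-1 at both times, by 0.39 and 0.58. IFNAR1 passed in none of the 6 comparisons with DMSO.

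Of 11 tested genes of nucleic acid sensing, 7 higher and 3 lower passed in EBC-1 at 48 h and 5 higher and 3 lower in MKN-45 (with poly-A centring 3 and 5 in EBC-1 and 1 and 3 in MKN-45). TLR3, the endosomal receptor of duplex RNA, rose in EBC-1 by 2.03 ± 0.12 (adjusted p = 1.45e-13) and 1.75 ± 0.12 (adjusted p = 2.36e-12) and in MKN-45, where its mean level was 3.61 in DMSO, 5.00 at 24 h and 4.66 at 48 h. These lie below the array median, so the size of the MKN-45 rise is uncertain. CGAS, the cytosolic DNA sensor, fell in both lines to levels below the array median, with changes of -0.83 ± 0.14 and -0.86 ± 0.14 at 48 h. STING1, the adaptor below CGAS, rose in EBC-1 by 1.13 ± 0.13 and read 0.02 ± 0.13 in MKN-45. Its MKN-45 means of 4.69 in DMSO and 4.71 at 48 h lay below the array median, where a change can be missed. AIM2, another DNA sensor, fell in EBC-1 at 48 h, by 1.48. Of 7 inhibitors of the pathway 3 higher and 2 lower passed in EBC-1 at 48 h and 5 higher and 1 lower in MKN-45 (with poly-A centring 1 and 3 in EBC-1 and 3 and 1 in MKN-45). SOCS1, the feedback inhibitor of JAK kinases, rose in MKN-45 from 4.19, below the array median, by 1.14 ± 0.11 at 24 h and 0.35 ± 0.11 at 48 h, and SOCS3 changed there by -0.72 ± 0.14 and -0.75 ± 0.14.

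Of 13 tested genes typical of interferon gamma, 7 higher and 2 lower passed in EBC-1 at 48 h and 7 higher and 1 lower in MKN-45 (with poly-A centring 3 and 6 in EBC-1 and 7 and 1 in MKN-45). The genes with the largest rises differed between the lines, and GBP4 and CXCL10 started below the array median, so that their sizes of change are uncertain. GBP4 rose in EBC-1 from 3.98, 3.97 and 4.10 to 6.57, 6.75 and 6.86 at 48 h, by 2.71 ± 0.12 (adjusted p = 4.75e-16), and read 0.07 ± 0.12 in MKN-45, a difference in response of 2.64 ± 0.17 (adjusted p = 3.05e-12). CXCL10, a chemokine that draws T cells, rose in MKN-45 from 3.52, 3.38 and 3.51 to 6.80, 6.75 and 7.28 at 24 h and 7.36, 7.27 and 7.86 at 48 h, by 3.48 ± 0.15 (adjusted p = 3.62e-16) and 4.03 ± 0.15 (adjusted p = 1.47e-17). In EBC-1 CXCL10 read -0.05 ± 0.15, and the responses differed by -4.08 ± 0.21 (adjusted p = 5.44e-14). The immunoproteasome subunit PSMB9 rose in EBC-1 by 0.52 and in MKN-45 by 1.78, and NLRC5, the activator of class I antigen presentation genes, by 0.99 and 0.81. TAP2, a peptide transporter chain, fell in both lines, and WARS1, the tryptophanyl-tRNA synthetase, fell in EBC-1 with a change of -1.07 ± 0.11 at 48 h.

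The promoter letters occurred among genes that rose and genes that fell. Of the 23 genes with a promoter entry that rose in EBC-1 at 48 h, 12 held the response element core and 8 the gamma-activated core. Of the 6 that fell there, 6 held the response element core and 2 the gamma-activated core. In MKN-45 at 48 h the response element core was in 11 of 18 that rose and 6 of 7 that fell. ISG15, IFIT1, IFIT3, BST2 and IFITM1, shown above with at least 1 response element core each, thus include genes that rose in EBC-1 (IFIT1, IFIT3 and IFITM1) and genes that fell there at 48 h (ISG15 and BST2). These counts are descriptions and were not tested.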

How the data were processed

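RNA of EBC-1, MKN-45 and HCC827 cells was hybridised to 27 one-colour arrays in 9 groups of 3, taken from the sample titles. The authors deposited log2 values for 49395 probe sets, from 1.87 to 14.38. Per the submitters' processing notes MAS5 was used, without a stated role, and the normalization method was not given in the sources used here. Members and gene lists were chosen with earlier results of these data known.

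Of the probe sets 44988 have 1 gene, 1832 several and 2473 none, per the platform annotation, and 44961 matched RefSeq. Those at or above the array median on at least 3 arrays were kept, and the brightest stood for its gene. limma 3.58.1 (R 4.3.3) fitted 9 group means (18 residual degrees of freedom) with an intensity trend, with Benjamini-Hochberg adjustment over all genes of a comparison (threshold 0.05). The number of arrays limits the precision, with a median SE of a difference of 0.11. p-values measure the spread between these replicates. Simulated data for EBC-1 at 24 h against DMSO over 12390 genes gave 155 calls, of which 5 were false. Changes of 1.25, 1.5, 2 and 4-fold were recovered there in 26%, 76%, 98% and 100% of cases. In the real comparison 59.2% of genes were called, and the adjusted p depends on the share of genes that change. The recovery of small changes in the simulation is therefore not that of the real comparison.

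Values array by array were given for the 3 largest called rises and falls of each comparison with DMSO and for genes called oppositely in EBC-1 and MKN-45 at 48 h, with a few more named after their values were seen. Alternatives were quantile normalization, centring on the median or the poly-A controls, other filters, no trend, mean probe sets, separate fits, a replicate block and each array left out.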

Additional observations from a re-analysis of the deposited data

Results flagged for a closer look

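All of the following are differences in the log2 response to SGX-523 between lines that passed the limma test of the difference itself. At 24 h, EBC-1 minus MKN-45 came to 2.20 for IFITM1, 1.82 for IFIT1, 1.80 for SAMD9L, 1.49 for IRF9, 1.26 for OAS1 and 0.78 for OASL. The same difference was -1.15 for RIGI, -0.83 for ISG15 and -0.64 for BST2. SAMD9L lay below the array median in MKN-45 DMSO, so the size of its difference is uncertain. IFITM1, IRF9, OAS1, OASL and ISG15 were called in opposite directions in the lines at 24 h.

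At 48 h, EBC-1 minus MKN-45 came to 2.27 for IFITM1, 2.04 for IFIT1, 1.70 for OAS1 and 1.11 for OASL, and to -1.24 for IFI6, -1.16 for ISG15, -0.98 for RIGI and -0.75 for BST2. IFI6 and RIGI rose in MKN-45 and did not pass in EBC-1.

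At 48 h, EBC-1 minus HCC827 came to 2.12 for GBP3, 2.09 for EPSTI1, 1.78 for GBP2 and 0.61 for ISG20, and to -1.84 for BST2, -0.82 for MX1, -0.76 for IFI27 and -0.70 for IFITM3. MKN-45 minus HCC827 came to 1.71 for GBP2, 1.40 for PARP9, 1.37 for EPSTI1 and 0.39 for ISG20, and to -2.68 for IFITM1, -1.82 for IFITM3 and -1.50 for OAS1. The ISG20 differences turned to -0.098 and -0.00087 under poly-A centring. Adjusted p over these differences ran from 9.79e-15 to 0.00514.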

How the results depend on the processing

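Counts of genes called are given as higher and lower. Shares of all genes under poly-A centring stand with the counts above. Where no share of all genes called under the same setting is given here or above, a changed count describes the processing. It is not a result about the list. Centring on the poly-A controls gave 21 higher and 12 lower in EBC-1 at 24 h, 16 higher and 16 lower at 48 h, 7 higher and 20 lower in MKN-45 at 24 h, and 12 higher and 0 lower in HCC827 at 48 h. It gave 0 higher and 1 lower for 48 h against 24 h in EBC-1 and 19 higher and 0 lower in MKN-45. For differences in response at 48 h it gave 16 higher and 11 lower (EBC-1 minus MKN-45), 11 higher and 17 lower (EBC-1 minus HCC827) and 10 higher and 14 lower (MKN-45 minus HCC827). It reversed 25 changes: in EBC-1 at 24 h ADAR -0.32, OAS1 -0.12, OASL -0.18, IFIT5 -0.011, TRIM21 -0.091, ISG20 -0.11; in EBC-1 at 48 h ADAR -0.34, OAS1 -0.053, TRIM21 -0.10, TRIM22 -0.018, ISG20 -0.059; in MKN-45 at 24 h ADAR -0.20, OAS2 -0.22, ISG15 -0.22, TRIM21 -0.15, SAMD9 -0.0026, ISG20 -0.11, SP100 -0.20, SP110 -0.0011, IFI6 -0.16. The others were ISG20 in HCC827 at 48 h (0.039) and in the differences from HCC827 (-0.098 for EBC-1, -0.00087 for MKN-45), and EIF2AK2 (0.048) and IFITM1 (0.022) in MKN-45 between times. By construction this centring subtracts the rise of those controls from all genes. The mean of all probe sets reversed SP100 in HCC827 at 48 h (-0.031).

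Quantile normalization gave 1 higher in HCC827 at 24 h, 0 lower there at 48 h, 2 lower there between times, and 0 higher in EBC-1 between times. Median centring gave 1 lower in HCC827 between times. Without a filter 0 were lower in HCC827 at 48 h and 3 in EBC-1 between times, and the filter at the 75th percentile left 1 higher in the latter. Separate fits gave 4 lower in EBC-1 at 24 h, 15 lower there between times, 4 higher and 0 lower in HCC827 at 48 h, and 4 higher there between times. The cause was not tested. Replicate numbers were checked for pairing: correlations of deviations ran from -0.20 to 0.16 over 27 pairs, and 5 exceeded 0.1. Arrays with unlike numbers were not compared, so this check cannot decide whether the numbers pair the samples. The main fit used no pairing. With the replicate block 0 were lower in HCC827 at 48 h and 2 in EBC-1 between times, and the other counts stayed within 1.5 times.

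Leaving out each array in turn gave these ranges, higher then lower: EBC-1 29 to 36 and 2 to 3 at 24 h, 29 to 33 and 5 to 8 at 48 h; MKN-45 19 to 24 and 9 to 11, then 20 to 24 and 9 to 12; HCC827 0 to 5 and 0 to 10, then 6 to 11 and 0 to 7. Between times they were 0 to 3 and 1 to 11 in EBC-1, 3 to 10 and 2 to 8 in MKN-45, and 6 to 15 and 0 to 6 in HCC827. The differences gave 23 to 30 and 5 to 6 (EBC-1 minus MKN-45, 24 h), 20 to 27 and 7 to 9 (48 h), 27 to 29 and 6 to 8 (EBC-1 minus HCC827), 16 to 22 and 7 to 11 (MKN-45 minus HCC827), and 31 to 33 and 4 to 8 in DMSO. In HCC827 at 24 h calls appeared without DMSO replicate 1 or SGX-523 24 h replicate 1 or 2, and at 48 h the single fall of ISG20 was lost without any 1 of 21 arrays. Without HCC827 SGX-523 24 h replicate 3, MKN-45 between times had 10 higher and 8 lower, EBC-1 between times 11 lower, HCC827 at 48 h 11 higher, and the DMSO comparison 8 lower. Levels below the array median limit the size of a change.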
